A study of Mus musculus with 6 samples.

Results

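Cholangiocytes are the epithelial cells that line the bile ducts, and biliary progenitors are the duct-like cells that can appear at the edge of the portal tracts after liver injury. A set of 7 genes that mark these cells was described here in whole liver: Krt19, Plet1, Spp1, Epcam, Sox9, Cd24a and Prom1. The members were chosen by name, with results of these same BDL and sham arrays in view, so their differences between the groups are given as a description and with no test. Of the 7 genes, 5 carried a probe set (several short oligonucleotides that together read out a transcript) under the platform annotation, with 7 probe sets among the 12488 on the array. Spp1, the secreted phosphoprotein osteopontin, and Sox9, the transcription factor of the biliary lineage, carried no probe set name here and were not analysed.

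Liver RNA came from 6 male mice, wild-type C57BL/6J, 8 to 10 weeks old, with 1 mouse per array. In the 3 mice of the BDL group the common bile duct had been ligated and cut 1 day earlier (bile duct ligation), and the 3 sham mice had the abdomen opened without ligation. The BDL mice are numbered 1, 12 and 3 and the sham mice 1, 2 and 3. The comparison asks how the liver transcriptome differs between cholestatic injury and the operation alone.

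Duct epithelium makes up a small part of the liver, so its transcripts are diluted by those of hepatocytes in whole-tissue RNA. After bile flow is blocked, bile ducts branch and multiply, a process known as the ductular reaction. Duct cells carry the keratin filaments of simple epithelia, adhesion molecules on their surface and the Notch-dependent transcription programme that sets them apart from hepatocytes. In such bulk samples, more cells of a type and more RNA per cell cannot be told apart.

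All 6 arrays had the same 2% trimmed mean, 1501. Sham replicate 1 stood apart at low signals, with a 10th percentile of 135 against 33.6 to 62.2 on the other 5 arrays. A floor was set at a signal of 153, the 25th percentile of all values; a signal under it was set to it before log2 was taken. A probe set was tested where at least 3 of the 6 arrays exceeded that floor, which 9542 probe sets did. All 21 hepatocyte markers with a probe set were tested, and albumin (Alb) had signals of 125084 to 199675.

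The defining duct markers were scarcely measured. Krt19 exceeded the floor on 3 of 6 arrays at its better probe set, and Epcam on 1. Plet1 was the single tested member whose BDL and sham values did not overlap: its signals were higher in all 3 BDL mice, with a mean log2 difference of 1.82 (SE 0.36, n = 3 and 3), 3.54-fold. Cd24a, Krt19 and Prom1 had overlapping groups, and Epcam lay under the floor on all 3 BDL arrays.

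Of the 4 members tested, 1 had groups that did not overlap, against 10.6% of all tested probe sets, 6.32% higher and 4.32% lower in BDL. Nothing is read from that count, since the members were proposed with this contrast known. Limma's test with Benjamini-Hochberg adjustment called 0% of the 9542 probe sets at a threshold of 0.05, and 552 had an unadjusted p under 0.05 (3.4% of all tested as higher and 2.39% as lower in BDL). The lowest adjusted p from limma was 0.667. With 4 tested members, 3 positive differences gave a median of 0.48, beside a median of -0.01 and 48.8% positive over all tested probe sets.

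**Figure D1:**
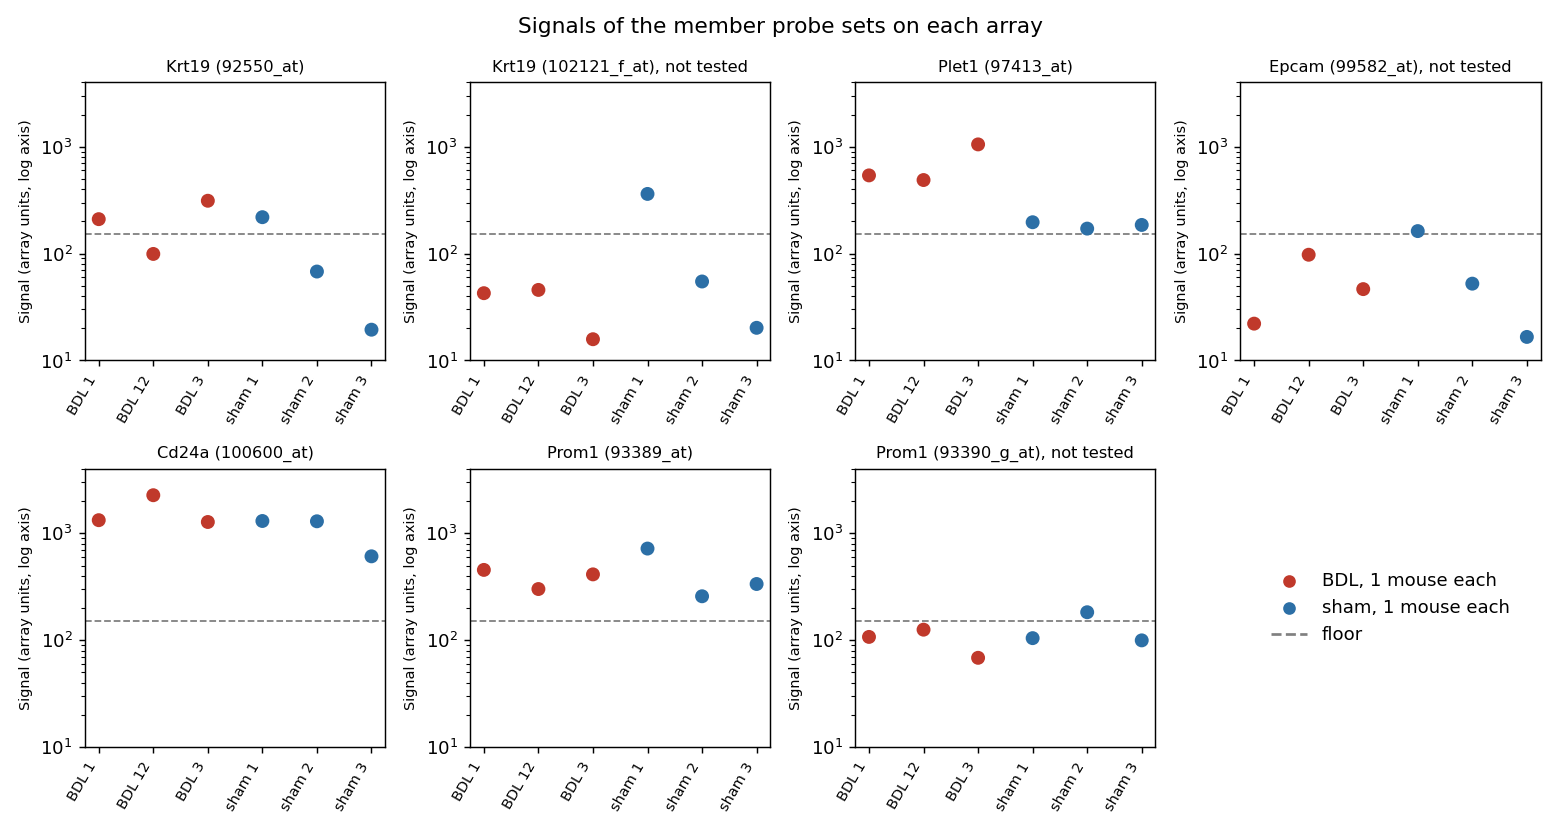
Signal of each member probe set (log axis, array units) on the 3 BDL and 3 sham arrays, 1 point per mouse, with the floor as a dashed line. Plet1 is the panel in which all BDL points, from 488 to 1050.5, lie above all sham points, from 171 to 196; the Epcam panel and the second panels of Krt19 and Prom1 lie almost wholly under the floor.

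Surface proteins of the biliary epithelium included the member with the widest separation. Plet1, a glycoprotein tethered to the outer membrane and named for its expression in placenta, marks epithelial progenitors in several tissues. In the BDL mice numbered 1, 12 and 3 its signals were 539, 488 and 1050.5, and in the sham mice numbered 1, 2 and 3 they were 196, 171 and 185. The values of the other members follow in the same order of mice. The lowest BDL signal was 2.48 times the highest sham signal. The BDL mean was 692 ± 311 and the sham mean 184 ± 12.6 (SD, n = 3 each), so the BDL mice differed among themselves far more than the sham mice did. BDL replicate 3 was the highest.

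The sham signals of Plet1 lay just above the floor on all 3 arrays, and the size of its difference moved with how low signals were treated. It was 1.82 with the floor at the 10th percentile and 0.98 with the floor at the 40th, where the sham values were set to 329. It was 1.27 when a constant was added in place of the floor. Leaving out 1 array at a time gave 1.48 without BDL replicate 3 to 2.03 without BDL replicate 12, and the direction was the same under all 13 alternatives. Leaving out sham replicate 1, whose low signals were raised, gave 1.87.

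Epcam, the epithelial cell adhesion molecule that mediates contact between neighbouring duct cells, gave signals of 22.1, 97.5 and 46.5 in the BDL mice and 162, 52.3 and 16.6 in the sham mice. The single value above the floor came from sham replicate 1, and no fold is given. Epcam was not tested.

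Cd24a, a small mucin-like surface protein of progenitor cells that is also made by immature blood cells, was well above the floor on all 6 arrays. The BDL mice gave signals of 1331, 2278 and 1280 and the sham mice 1307, 1299 and 611. Of these, 4 values lay between 1280 and 1331 across both groups, with BDL replicate 12 above them and sham replicate 3 below. The mean log2 difference of 0.63 (SE 0.40) shrank to 0.27 when sham replicate 3 was left out and to 0.37 when BDL replicate 12 was.

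Prom1, the pentaspan membrane protein prominin-1 (CD133) of progenitor cell protrusions, had 2 probe sets. The tested probe set read 456, 302 and 414 in the BDL mice, against 722, 258 and 336 in the sham mice. The sham mice enclosed the BDL mice on both sides, and the log2 difference was -0.05 (SE 0.42). Its sign turned to 0.38 without sham replicate 1, to 0.13 without BDL replicate 12 and to 0.002 after quantile normalization. The second Prom1 probe set exceeded the floor on 1 array only, sham replicate 2 at 183, with the rest between 68.6 and 126.

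Krt19, the type I keratin by which duct cells are told from hepatocytes, is the cytoskeletal member. The probe set with the higher level read 210, 99.2 and 312 in the BDL mice, against 219, 67.9 and 19.4 in the sham mice. BDL replicate 3 was the highest and sham replicate 1 the next, so the groups overlapped. The log2 difference was 0.32 (SE 0.35). It was 1.03 with the floor at the 10th percentile, where the low sham signals keep more of their spread, and 0.06 without BDL replicate 3. After quantile normalization and with the floor at the 40th percentile, the probe set no longer exceeded the floor on 3 arrays.

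The other Krt19 probe set, whose probes the platform marks as shared within a family of similar sequences, went the other way. It read 42.6, 45.7 and 15.8 in the BDL mice, against 361, 54.8 and 20.2 in the sham mice, and was not tested. The value of 361 on sham replicate 1 is the only one above the floor. That array was thus the sole one above the floor for Epcam and for this Krt19 probe set; what part its raised low signals had in these values was not tested.

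**Figure D2:**
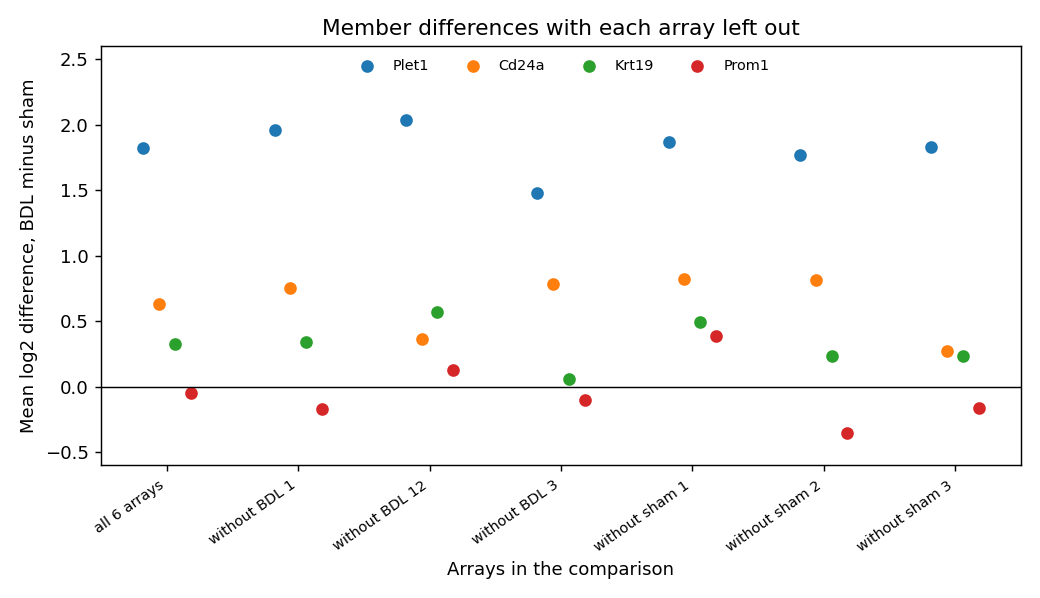
Mean log2 difference, BDL minus sham, of the 4 tested members with all 6 arrays and with each array left out in turn (x axis, arrays in the comparison). Plet1 stays between 1.48 and 2.03, Cd24a and Krt19 stay above 0, and Prom1 crosses 0.

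The promoter of Plet1 is shown because Plet1 was the member with separated groups, with that of Prom1, whose groups overlapped, beside it. The arrays did not measure promoters. Each is the stretch of 150 bases that ends at the gene's annotated start, from RefSeq on GRCm38.p6; such windows were held for Plet1, Prom1, Epcam and Spp1. The Plet1 window is chr9:50494375-50494524 on the plus strand, and the Prom1 window, the upstream one of its 2 annotated starts, is chr5:44101737-44101886 on the minus strand. Capitals mark matches to the 6 motifs searched.

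Plet1: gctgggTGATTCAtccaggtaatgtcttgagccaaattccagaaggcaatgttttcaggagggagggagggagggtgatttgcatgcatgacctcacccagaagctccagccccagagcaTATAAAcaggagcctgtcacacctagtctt

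Prom1: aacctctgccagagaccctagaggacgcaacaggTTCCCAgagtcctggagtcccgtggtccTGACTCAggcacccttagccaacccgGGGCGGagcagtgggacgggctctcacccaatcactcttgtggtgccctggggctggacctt

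The motifs, searched on both strands, were those named for TEAD (GGAATG), RBPJ (TGGGAA), SOX (ACAATG), AP-1 (TGANTCA), KLF and SP factors (GGGCGG) and the TATA box (TATAAA). The Plet1 window held a TATA match that begins 30 bases before the start, which 7.57% of 32851 such windows hold somewhere on either strand, and an AP-1 match that begins 144 bases before it, which 4.24% hold. The Prom1 window held an AP-1 match as well, 88 bases before the start, with an RBPJ match (13.1% of windows) and a GC box (28.6%). The Epcam window held a GC box alone, and both Spp1 windows and the second Prom1 window held none of the 6. An AP-1 match was thus present in the member with separated groups and in one with overlapping groups.

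Other genes of biliary epithelium were read from a list of 45 genes, of which 34 had a probe set, 26 were tested and 4 lay at the floor on all arrays. Positive differences were seen for 20 of the 26, with a median of 0.18, and 0 passed the adjusted p of limma in either direction. Groups did not overlap for 5, all higher in BDL, against 6.32% of all tested probe sets, and 4 had an unadjusted p under 0.05. With 1 array left out, positive differences numbered from 15 (sham replicate 3 left out) to 21 (sham replicate 1 left out), and the median lay between 0.10 (BDL replicate 1 left out) and 0.44 (BDL replicate 12 left out).

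The 5 with separated groups were Krt18, Anxa5, Anxa3, Krt8 and Cldn3. Krt8 and Krt18 are the keratin pair of simple epithelia, made by hepatocytes as well as duct cells, and Krt8 is the type II partner with which Krt19 forms filaments. Krt18 signals were 17346, 11974 and 32178 in the BDL mice against 4530, 7402 and 5137 in the sham mice, a log2 difference of 1.76 (SE 0.41, limma adjusted p = 0.667). Krt8 signals were 17032, 13904 and 31127 against 5960, 10411 and 7870, a log2 difference of 1.31 (SE 0.39, limma adjusted p = 0.830). A second Krt18 probe set lay under the floor on all arrays, at 4.9 to 139, and was not tested. BDL replicate 3 was the highest array for Krt8, the tested Krt18 probe set, Plet1 and the better Krt19 probe set.

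Among the other genes of that list, Anxa3, an annexin of membrane traffic, had sham signals of 137, 72.9 and 63.0, all under the floor, and BDL signals of 381, 405 and 389. It was at least 2.56-fold higher in BDL (geometric mean against the floor), and passed the filter only through its BDL arrays, so its place among the separated genes followed from the filter. Anxa5, the annexin that binds exposed phosphatidylserine, differed by 1.45 (SE 0.47), with sham replicate 2 at 9662 close to the lowest BDL signal of 10143. Cldn3, a claudin of tight junctions, differed by 0.47 (SE 0.29). All 6 tested channels and transporters of the list had overlapping groups: the water channels Aqp1 and Aqp8 differed by 1.10 and 0.13, the chloride channel Cftr by -0.21, the anion exchanger Slc4a2 by -0.33, the bile acid importer Slc10a2 by 0.38 and the glucose importer Slc5a1 by 0.07. Krt7, the other keratin typical of duct cells, exceeded the floor on 1 array only, sham replicate 1 at 198, and was not tested.

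**Figure D3:**
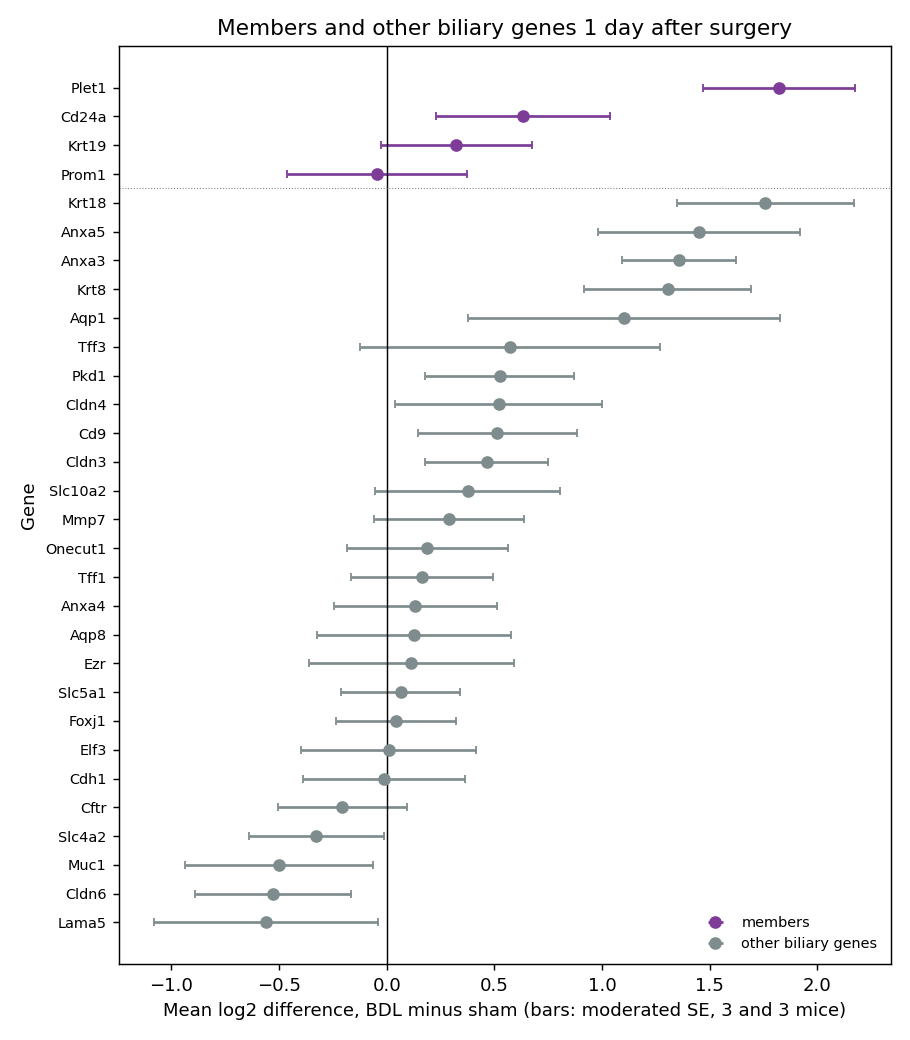
Mean log2 difference, BDL minus sham (x axis), of the 4 tested members (above the dotted line) and the 26 other tested biliary genes (below it), with bars of 1 moderated SE, 3 mice per group. Plet1 at 1.82 and Krt18 at 1.76 lie farthest to the right, and Lama5 at -0.56 farthest to the left.

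Direct partners of the members made up 18 genes, some of them also in the lists, of which 16 had a probe set and 10 were tested. Osteopontin binds cells through integrins and the hyaluronan receptor Cd44. Of 13 receptor genes listed, 9 had a probe set and 5 were tested, 3 of them positive. Of the 5, 0 passed the adjusted p from limma, and 2 had separated groups, against 10.6% of all tested probe sets. Itgb1, the beta chain shared by many matrix receptors, differed by 0.47 (SE 0.27) with groups that did not overlap, and by 0.16 at its second probe set. Itgb7, a beta chain of lymphocyte homing receptors, differed by -1.15 (SE 0.47, limma adjusted p = 0.832), also with separated groups, and by -0.62 without BDL replicate 12 and -0.57 with the replicate number as a block. Itgav and Itgb5, which pair as a vitronectin and osteopontin receptor, differed by 0.44 and 0.48 with overlapping groups, and both had further probe sets of the opposite sign. Without sham replicate 1 they differed by 0.19 and 0.13. The brighter probe sets of Itgb1 and Itgav, like the untested one of Krt19, are marked as shared within a family of similar sequences. A second Itgb7 probe set lay under the floor on all arrays, at 29.1 to 134, and was not tested. Itga4, an alpha chain of leukocyte integrins, differed by -0.30 (SE 0.46) with overlapping groups. Itgb3, the beta chain of a vitronectin receptor, exceeded the floor on 2 of 6 arrays and was not tested. The 3 Cd44 probe sets were not tested, with at most 2 of 6 arrays above the floor.

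Of the partners of Epcam in tetraspanin complexes, the tetraspanin Cd9 was tested and differed by 0.51 (SE 0.37) with overlapping groups, by 0.24 without sham replicate 1 and by 0.84 without sham replicate 2. The claudin Cldn7 and the tetraspanin Tspan8 lay under the floor on all 6 arrays, as Epcam did on 5. In the wider list of membrane partners, 10 of 18 genes were tested, 6 of them positive, with a median of 0.16 and 1 gene with separated groups, near the 10.6% of all tested probe sets. This was Ctnnb1 (beta-catenin), at 0.72 (SE 0.34). Selp, the platelet and endothelial selectin to which Cd24a binds, exceeded the floor on sham replicate 1 alone.

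Notch, Hippo and TGF-beta genes set biliary fate and act on Sox9, which itself was not analysed. Of 37 genes listed, 24 were tested, 12 of them positive, with a median of 0.01, and 0 passed the adjusted p from limma. Groups did not overlap for 2, Tgfbr1 and Notch2, against 10.6% of all tested probe sets, so the share is near that background. Tgfbr1, the type I TGF-beta receptor, had sham signals of 112, 58.4 and 112, all under the floor, and BDL signals of 362, 340 and 306, at least 2.19-fold higher (geometric mean against the floor). It passed the filter only through its BDL arrays, so its separation followed from the filter. Notch2, the Notch receptor of duct formation, gave opposite signs at its 2 probe sets, 0.79 (SE 0.33, groups apart) and -0.80 (SE 0.61, overlapping), so no direction is given for it. Hes1, a Notch target, differed by -0.05 (SE 0.34). Yap1, the Hippo effector, differed by 0.45 (SE 0.30), with overlapping groups. Other genes of the list went both ways, also with overlapping groups: Hes5 at -0.82 (SE 0.42), Hey1 at 0.67 (SE 0.37) and Ccn2 at 0.89 (SE 0.48).

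Markers of other cells that can carry member transcripts were read beside them. Macrophages are a source of osteopontin. Of their 18 markers listed, 14 had a probe set and 12 were tested, 10 of them positive, with no marker at the floor on all arrays. Their summed signals ranged from 17732 to 41229 in BDL and from 8185 to 15434 in sham mice. Cd14 made up much of the higher sums, with 1873, 29692 and 15816 in the BDL mice against 717, 4568 and 1176 in the sham mice. The sums are therefore not read as a difference of the whole list. Groups did not overlap for 2 of the 12, against 10.6% of all tested probe sets: Ctss (a lysosomal cathepsin) at 0.92, or 0.62 without sham replicate 3, and Tyrobp (a myeloid adaptor) at 1.10, or 0.65 without that array. Of the 12, 0 passed the adjusted p from limma. The median was 0.87. The part of these cells in the values of Plet1 was not tested.

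For Cd24a, which B cells, granulocyte precursors and red cell precursors also make, blood cell lists were read. The 10 tested B and T cell markers had a median of -0.40 and the 12 neutrophil markers -0.11. The 8 erythroid markers had a median of -0.01, as did all tested probe sets, with 4 positive. Erythroid centred means were highest on BDL replicate 12 (0.36) and lowest on sham replicate 3 (-0.47), as were the Cd24a signals. The part of blood cells in the values of Cd24a was not tested. The sham arrays differed widely in B and T cell markers, with centred means of 0.77, 0.37 and -0.56, on both sides of the BDL arrays. Of the 12 neutrophil markers, groups did not overlap for 2, against 10.6% of all tested probe sets. These were Chil3, a chitinase-like protein, at 1.41 and Camp, a granule peptide, at -0.60. S100a9, a calprotectin subunit, differed by 1.49 and Elane, the neutrophil elastase, by -0.74, both with overlapping groups. Exocrine pancreas, which lies beside the ligated duct and has a duct epithelium of its own, had a median of -0.46 over 8 markers, and its summed signals ranged from 5406 to 8837 in BDL and from 5817 to 17894 in sham mice. Sham replicate 1 was the highest array of that list, with a centred mean of 1.10 against 0.13 and -0.54 on the other sham arrays, and without it Cela2a (an elastase) went from -0.46 to -0.01 and Ctrb1 (chymotrypsinogen) from -0.57 to 0.22. The 21 hepatocyte markers had a median of 0.004 and went both ways, with separated groups for 4, against 10.6% of all tested probe sets. Lower in BDL were Ttr (transthyretin) at -1.25, Cebpa (a hepatocyte transcription factor) at -1.02 and G6pc (glucose-6-phosphatase) at -1.001. Without BDL replicate 3, G6pc differed by -0.31. Cyp3a11 (a drug-metabolizing enzyme) was higher, at 0.56, or 0.32 after quantile normalization. The 12 stellate and mesenchymal markers had a median of 0.08, with 6 positive, and the 11 endothelial markers 0.41, with 9 positive. Groups did not overlap for 2 of the 12, Acta2 at 1.14 and Sparc at 0.92, and for 1 of the 11, Fcgr2b at 1.29. The background was 10.6% of all tested probe sets. Endothelial centred means were -0.57, 0.41 and -0.51 on the sham arrays, with sham replicate 2 above all BDL arrays (0.13 to 0.38). The 11 tested genes of proliferation had a median of -0.25, with 4 positive. Groups did not overlap for 2 of them, against 10.6% of all tested probe sets: Pcna at 0.69 and Plk1 at -0.40. The sham arrays had centred means of 0.67, 0.12 and -0.65 in this list, on both sides of the BDL arrays, so no direction is given for it.

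**Figure D4:**
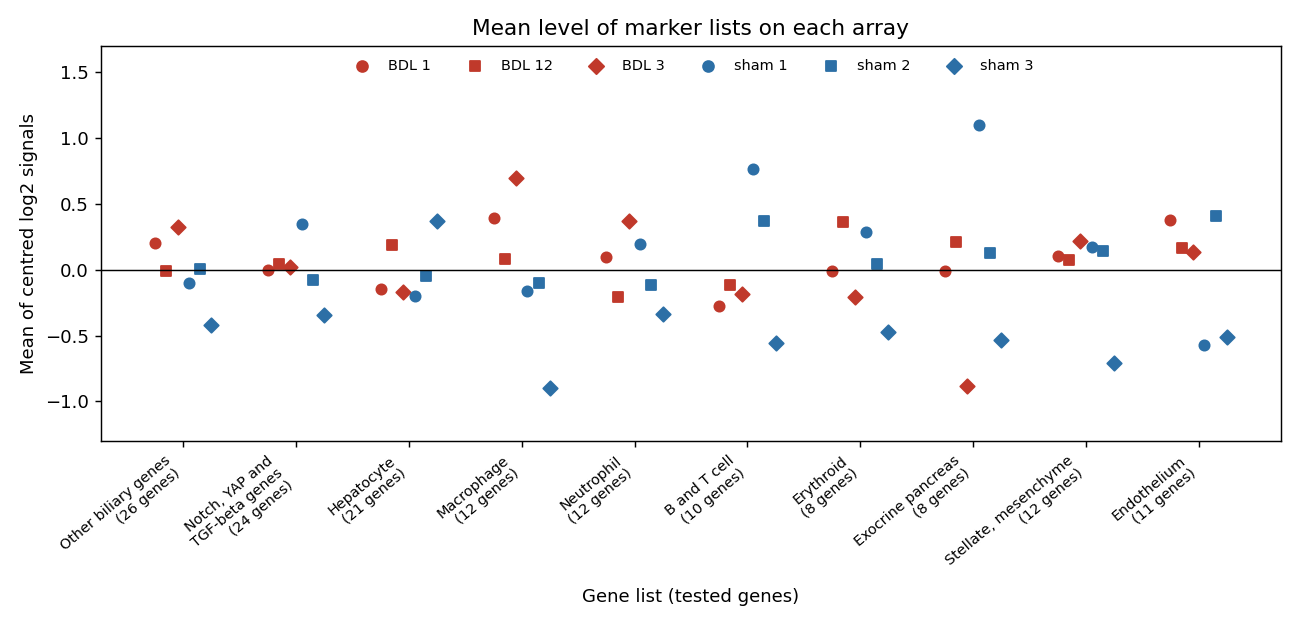
Mean over the tested genes of each list (x axis) of log2 signals centred per gene (y axis), 1 point per array, BDL in red and sham in blue. Other biliary genes lie between -0.42 on sham replicate 3 and 0.32 on BDL replicate 3. Their groups overlap, with BDL replicate 12 at -0.01 below sham replicate 2 at 0.005. Macrophage markers lie higher on all BDL arrays (0.08 to 0.69) than on all sham arrays (-0.90 to -0.10). The macrophage means include Cd14, which differed by 2.61, and were not taken without it. Cd14 had a signal of 29692 on BDL replicate 12, the lowest BDL array of that list, and of 717 on sham replicate 1. The separation of the macrophage means is therefore not read as one of the list as a set. Sham replicate 3 is the lowest sham array in all lists shown but those of hepatocytes and endothelium.

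The genes most like each tested member over the 6 arrays were taken by the root mean square difference of centred log2 signals, among 6897 genes with a tested probe set. Nearest to Plet1 were Krt18 (0.30), Ablim1 (0.30), which encodes an actin-binding LIM protein, and S100a6 (0.32), a calcium-binding protein, beside a standard deviation of Plet1 itself of 1.07. Nearest to the better Krt19 probe set were Mmp7 (0.08), a matrix protease of epithelial ducts, Ifih1 (0.09) and Lgals3 (0.13). For Cd24a they were Taf1d (0.13), Fasn (0.13) and Actb (0.17), and for Prom1 Krt84 (0.05), Gzmb (0.06) and Erg28 (0.09). These are descriptions over 6 arrays that share their normalization; with so many genes, close profiles are found for most patterns, and Krt19 and Mmp7 share values set to the floor.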

How the data were processed

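The deposited values are 1 signal intensity per probe set and array, made by the authors from U74Av2 arrays with GeneChip software (version 3.1) and Affymetrix's MicroArray Suite (version 4.0), per the series' design text; background step and scaling target: not given in the sources used here. Intensities were kept as scaled, since the 2% trimmed means lay within 5% of each other. Names came from GEO's platform annotation, brought up to date through Entrez identifiers in RefSeq (GRCm38.p6): 10833 probe sets had 1 symbol, 396 several and 1193 none. Where a gene had several tested probe sets, the brightest on average stood for it. BDL minus sham was fitted with limma 3.58.1 in R 4.3.3 (lmFit, eBayes, no covariates) on all tested probe sets, after 66 controls were left out, with Benjamini-Hochberg adjustment at 0.05. SE is limma's moderated standard error on the log2 scale. The fit was tested on simulated data in which changes were added only to probe sets well above the floor. That setting does not cover members near the floor, such as Plet1 and Krt19.

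Named were all members, their direct partners, up to 4 genes per list with the smallest p, and the 3 nearest profiles. Cldn3, Aqp1, Aqp8, Cftr, Slc4a2, Slc10a2, Slc5a1, Lama5, Hey1, Yap1 and Alb were named after their values were seen. The promoter windows and motifs were also chosen after values were seen. The members and lists were chosen with earlier results of these data known. Alternatives covered normalization, floor, added constant, filter, variance model, replicate block and each array left out. No detection calls were used, so a low signal is known only against the floor. The number of arrays limits the precision.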

Additional observations from a re-analysis of the deposited data

How the results depend on the processing

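The count of probe sets past the adjusted threshold was 0 under all alternatives except that without a filter on low values, where 3 passed (limma): Anxa3, Myc and Ate1, each under the floor on all 3 sham arrays, where the floor sets the sham spread to 0. The count of probe sets with separated groups was 825 to 1206 under the other settings against 1015, and 1565 to 2872 with an array left out, where fewer arrays have to be apart. The median difference of the tested members was 0.48 to 0.83 under the other settings and 0.25 to 0.66 with an array left out. Titles of both groups share the numbers 1 and 3 only. With the replicate block, 0 probe sets passed and the members' median was 0.52. BDL replicate 12 and sham replicate 2 had no partner in the block, so its estimates came from numbers 1 and 3 alone. With so few arrays left to give the spread, nothing is read from that count of 0. Deviations from the group means correlated at 0.21 for number 1 and 0.25 for number 3, and at 0.29 between BDL replicate 12 and sham replicate 2, against -0.21 to -0.04 for the 6 other pairs across groups. This is a hint from the data, not the design: the number 12 was kept as the title gives it, the block joined numbers 1 and 3 only, and the labels do not say what a number marks. Floor signals limit Krt19, Epcam, Krt7, Cldn7 and Tspan8.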
